A study of Mus musculus with 30 samples.

Results

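IgE-bearing B cells of the germinal centre (GC) were compared with naive B cells, both sorted from the mesenteric lymph nodes of mice on day 10 of infection with Nippostrongylus brasiliensis, an intestinal nematode that drives a strong IgE response. The comparison takes 6 of the 30 arrays of the series, 3 of IgE GC cells and 3 of naive cells, and the probe sets that the platform annotation ties to 1 gene symbol, which were 21640 of 34760. The series was made to set IgE against IgG1 B lymphocytes, and the naive arrays belong to its first experiment of 18 arrays. All mice were CeGFP BALB/c, which carry an IRES-GFP cassette knocked into the 3' untranslated end of membrane IgE, so the naive cells have the reporter allele as well, and all were infected. The IgE GC cells were sorted as IgE+ GFP+ B220+ CD95+ CD138- cells. Naive cells were sorted as B220+ CD95- CD138- cells that stained for neither IgG1 nor IgE, and the labels give no sign for GFP on them, so their GFP gate is not known here. Cells of 3 mice were pooled for each array, and the replicates of a group came from separate sorts. In CeGFP mice GFP also lights up some IgG1 cells whose nonproductive heavy chain allele has joined to Cepsilon, so the gate on IgE itself separates the IgE cells from these. The groups used for reference, GFP+ and GFP- IgG1 GC cells (3 arrays each), came from infected mice of the same strain and were gated in the same way on B220, CD95 and CD138.

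A germinal centre is the site in a lymphoid follicle where antigen-activated B cells divide, mutate the variable regions of their antibody genes and compete for help from T follicular helper cells. GC cells alternate between a dark zone, where they divide, and a light zone, where they are selected, while naive B cells are quiescent and recirculate between blood and follicles. The transcriptional repressor BCL6 holds the GC state, and the enzyme AID starts the mutation of antibody genes. IgE GC cells in mice are known to be few and short-lived.

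Values are log2 signals after RMA normalization, and a difference is IgE GC minus naive on that scale. Genes above the array median on at least 2 of the 18 arrays were tested. Calls rest on limma's moderated test across 12098 genes with Benjamini-Hochberg adjustment, at an adjusted p under 0.05. The 3 IgE GC arrays were close to each other, with correlations of 0.973 to 0.974 across genes, whereas naive pairs reached only 0.868 to 0.922, with naive replicate 1 the farthest from the others. IgE GC and naive arrays correlated at 0.764 to 0.854. The median SD per gene was 0.178 among IgE GC arrays and 0.342 among naive arrays, while the fit used a spread pooled over all 18 arrays of the experiment. Array medians were 5.29 to 5.34 in IgE GC cells and 5.38 to 5.47 in naive cells, and a level under the array median may be background, so a fold computed against it can understate the change.

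The transcriptomes of IgE GC and naive B cells differed at 3230 of 12098 genes, 26.7% of those tested. The changes leaned upward, with 2335 genes (19.3%) higher in IgE GC cells and 895 (7.4%) lower, so that 72.3% of calls were increases. Quantile normalization of the 18 arrays moved this split to 1836 higher and 1113 lower, or 62.3% increases. With no filter on low values 19937 genes were tested, with 2274 higher and 1466 lower, or 60.8% increases. The median difference was then -0.143. At least 2-fold differences were seen in 1446 genes that rose and 316 that fell, and 16-fold differences in 50 that rose and 4 that fell. The 3 arrays of each group did not overlap for 4721 genes, 39.0% of those tested, and the median difference over all genes was 0.059. With only the 6 arrays in the fit, 2037 genes were called, 1968 of which were among the 3230. The shares over all genes, 19.3% higher and 7.4% lower, are the background for each list count below.

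**Figure D1:**
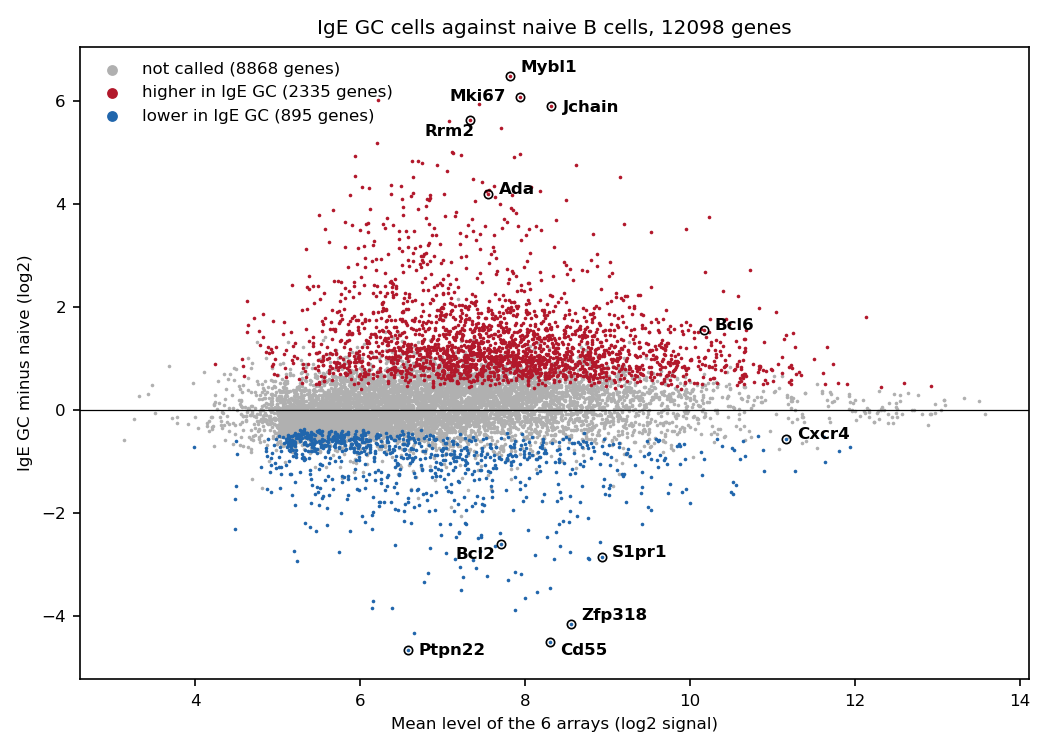
Difference between IgE GC and naive cells (log2, vertical) against the mean log2 level of the 6 arrays (horizontal) for 12098 genes, coloured by call, with 12 genes named. The largest increases, up to 6.48 for Mybl1, exceed the largest decrease, -4.66 for Ptpn22.

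The genes behind the sort gates and lists of cell type markers were checked against the labels. Fas, which encodes the CD95 of the gate, measured 8.64, 8.73 and 8.56 on the IgE GC arrays and 5.02, 6.36 and 3.74 on the naive arrays, a difference that the gate itself would set. Ptprc, which encodes B220, measured 11.19 to 11.42 and 11.30 to 11.55, and Sdc1, which encodes CD138, stayed under the array median on all 6 arrays. The heavy chain genes of IgE and IgG1 were not analysed here. All 8 B cell markers with a probe set were above the median on each of the 6 arrays, and none of them was called. Of the 7 markers of naive follicular B cells, 6 were lower in IgE GC cells and the other, Fcer2a, was not called.

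**Figure D2:**
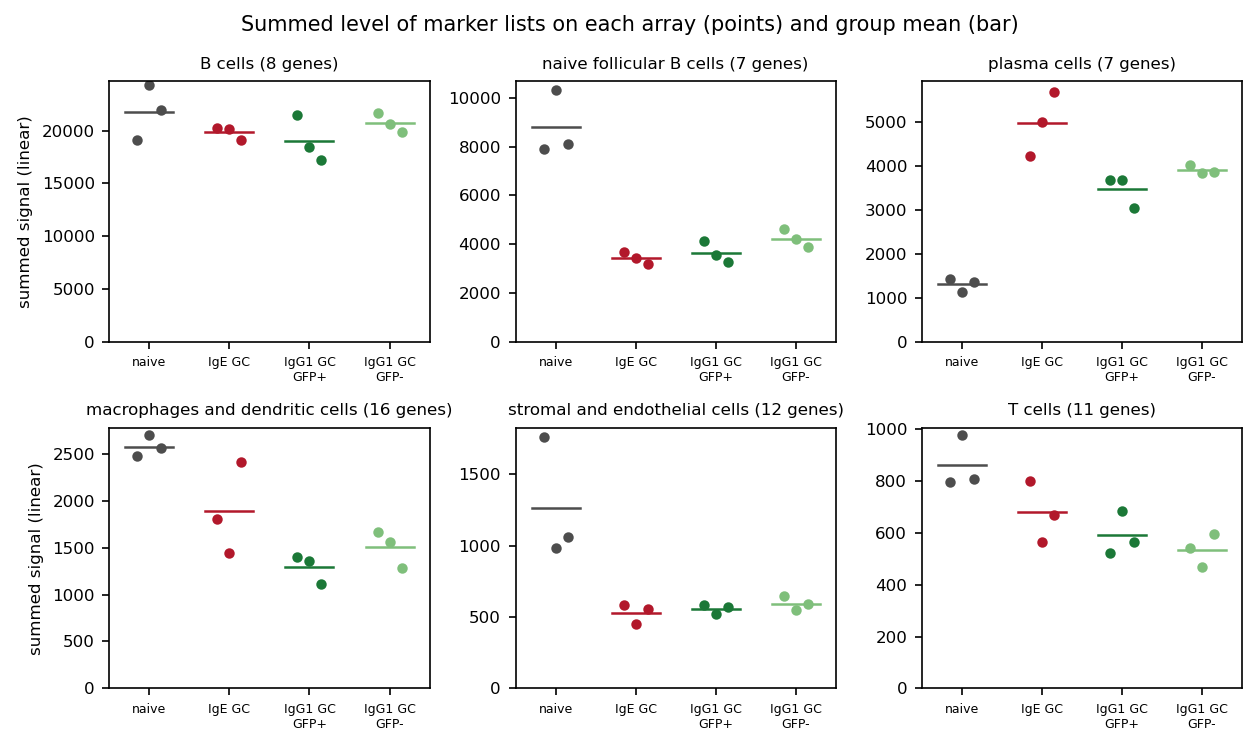
Summed linear signal of 6 marker lists on each array (points) with the group mean (bar), for naive, IgE GC and both IgG1 GC groups. B cell markers overlap between groups, naive follicular markers sum to 7920 or more on the naive arrays and to 3671 or less on the IgE GC arrays, and the plasma cell list runs the other way.

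Markers of other cells also moved with the groups. The summed signal of 16 macrophage and dendritic cell markers was 1442 to 2416 on the IgE GC arrays and 2479 to 2698 on the naive arrays, with 9 of them tested, 1 called higher and 3 lower. Flt3 was the one called higher, at 6.54, 6.45 and 6.24 against 6.02, 5.52 and 5.54 (0.71 ± 0.17, limma adjusted p = 0.00431). Cst3, the brightest of the list, overlapped at 10.03, 9.38 and 10.65 against 10.67, 10.13 and 10.65 and was not called. Also not called were Cd68 (1.12 ± 0.44, limma adjusted p = 0.0672), Ctsb (0.81 ± 0.37, adjusted p = 0.111), Lyz2 (0.35 ± 0.67, adjusted p = 0.722) and Bst2 (-0.73 ± 0.30, adjusted p = 0.0798). Cd68, Ctsb and Bst2 were above the median on all 3 IgE GC arrays. Tyrobp, a signalling adaptor of myeloid and natural killer cells, measured 5.95, 5.67 and 5.34 against 8.24, 8.75 and 8.30. Csf1r, Itgax, Itgam and Adgre1 of the same list were under the median on every one of these arrays and were not tested. Siglech, a marker of plasmacytoid dendritic cells, was called lower and was above the median on all 3 naive arrays, at 4.97, 4.92 and 5.04 against 6.11, 7.81 and 6.19 (-1.73 ± 0.30, adjusted p = 0.000469). Fcer1g, the third marker called lower, was above the median on 2 of the 3 naive arrays and on no IgE GC array. The 12 stromal and endothelial markers summed to 451 to 586 in IgE GC cells and 984 to 1760 in naive cells. Only Pecam1 of the 8 tested was called lower, a receptor that B cells also make. At 7.55, 6.69 and 7.31 against 10.31, 9.22 and 9.15 it was the brightest of the list on every array, so it weighed most in these sums. The 11 T cell markers summed to 566 to 802 and 796 to 980, with 2 of 9 tested called lower. The 7 plasma cell markers summed to 4212 to 5682 in IgE GC cells and 1131 to 1422 in naive cells, with 3 called higher, 1 lower (Irf4) and 3 not called. Jchain and Slamf7 were the brightest of them on the IgE GC arrays. Natural killer markers (10 genes) summed to 146 to 184 against 225 to 283, and neutrophil and eosinophil markers (12 genes) to 269 to 320 against 347 to 466, so both sums were apart between the groups. At most 3 of the 10 and 5 of the 12 genes were above the median on any of these arrays, so both sums include values that may be background. The part of these other cells in the differences described here was not tested, and in bulk samples fewer cells of a type and less RNA per cell cannot be told apart.

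Genes of the germinal centre programme were among the largest increases. Mybl1, which encodes the MYB-family factor A-MYB of GC dark zone cells, measured 11.02, 11.13 and 11.02 on the IgE GC arrays and 4.98, 4.52 and 4.23 on the naive arrays. The groups were far apart, 89.4-fold, with a difference of 6.48 ± 0.27 (SE, 3 arrays against 3, limma adjusted p = 4.28e-11). Gcsam, which encodes the GC-associated signalling adaptor HGAL, measured 10.24, 10.43 and 10.57 against 4.60, 4.38 and 4.45. All 3 naive arrays were below their median for it, and the difference was 5.94 ± 0.21, or 61.3-fold (adjusted p = 1.12e-11). Rgs13, a regulator that shortens signalling from chemokine receptors, measured 9.72, 9.0 and 9.39 against 4.79, 5.13 and 4.28, without overlap, and rose by 4.64 ± 0.35 (adjusted p = 4.15e-08).

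Bcl6, the repressor that defines the GC state, was already well expressed in naive cells. It measured 10.96, 10.91 and 10.94 on the IgE GC arrays and 8.83, 9.73 and 9.62 on the naive arrays, a difference of 1.55 ± 0.38 (adjusted p = 0.00641). The 3 IgE GC arrays lay within a narrow band above all naive arrays, and the lowest naive value was that of replicate 1. S1pr2, the receptor that confines B cells to the GC, rose from 7.13, 6.56 and 6.68 to 8.60, 8.61 and 8.62, and Gna13, the G protein that it signals through, was 1.09 ± 0.26 higher (adjusted p = 0.00488). The call for Gna13 was lost with only the 6 arrays in the fit (adjusted p = 0.0561, with a range of 0.000897 to 0.0561 over 14 alternatives). Of 18 genes listed for the GC programme 16 were tested, and 12 of these rose, none fell and the median difference was 1.92, beside 0.059 for all genes.

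**Figure D3:**
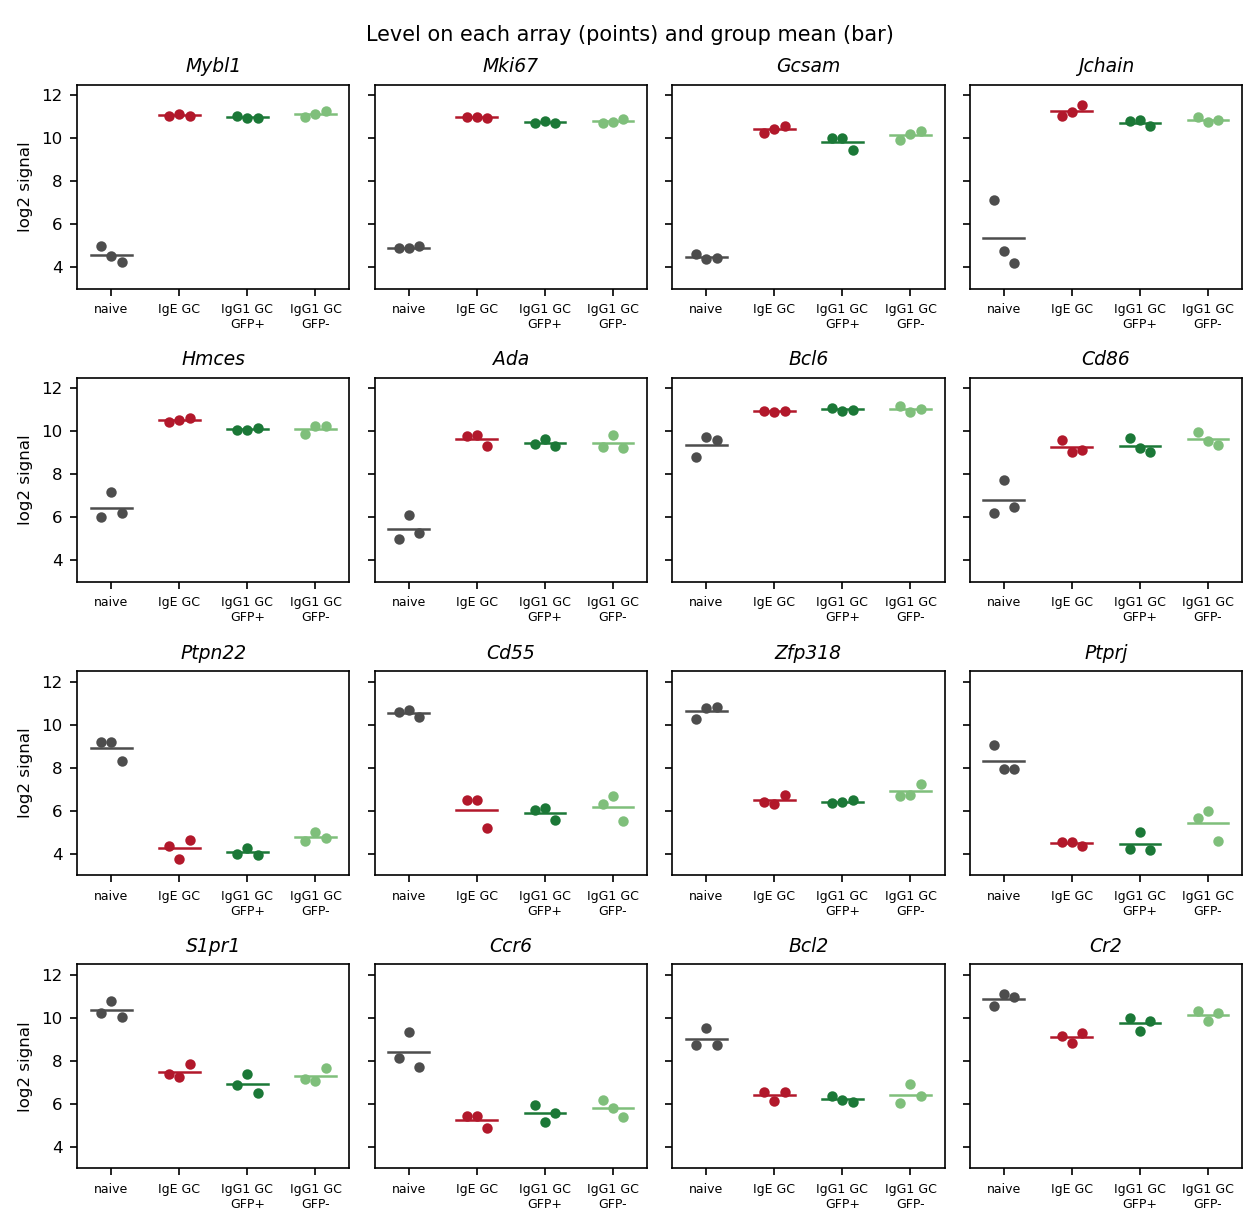
Log2 signal of 16 genes on each array (points) with the group mean (bar) in naive, IgE GC, GFP+ IgG1 GC and GFP- IgG1 GC cells. In the upper 8 panels the GC arrays lie above the naive arrays and in the lower 8 below them, and the IgE GC points sit beside those of the IgG1 GC groups.

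Genes of cell division were frequent among the largest increases. Mki67, which encodes the proliferation antigen Ki-67, measured 10.98, 10.99 and 10.96 on the IgE GC arrays and 4.87, 4.89 and 4.97 on the naive arrays. Both groups were tight, and the difference of 6.06 ± 0.12 (66.9-fold, adjusted p = 4.28e-15) had a small error. Bub1, a kinase of the spindle checkpoint, measured 8.50, 8.97 and 8.94 against 4.33, 3.04 and 3.49 (5.18 ± 0.30, adjusted p = 2.05e-09). Knl1, the kinetochore scaffold that recruits BUB1, rose by 5.00 ± 0.26, and Kif11, the kinesin that separates spindle poles, by 4.98 ± 0.25. All 48 listed genes of mitotic kinases, kinesins and kinetochores were tested, and all 48 rose, by 1.60 to 5.18 with a median of 3.31. The 48 calls were also made with only the 6 arrays, after quantile normalization and without naive replicate 1.

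Replication genes rose nearly as uniformly. Rrm2, the regulated subunit of ribonucleotide reductase, measured 9.98, 10.14 and 10.33 in IgE GC cells and 4.95, 4.39 and 4.22 in naive cells. The naive arrays lay below their medians and the difference was 5.63 ± 0.25, or 49.5-fold (adjusted p = 8.35e-11). Mcm6 and Mcm3, subunits of the replicative helicase, rose by 3.91 ± 0.28 and 3.71 ± 0.21. Top2a, which untangles replicated DNA, rose by 5.48 ± 0.25 on the probe set used, while its other probe set gave 0.66 (adjusted p = 0.34). Of 42 replication genes 38 rose and none fell, with a median difference of 2.21. Tk1, a thymidine kinase, stood apart from the nucleotide synthesis genes. It measured 8.91, 8.90 and 9.02 against 9.86, 8.60 and 9.75, with overlapping groups (adjusted p = 0.264), although its other probe set gave 1.45 (adjusted p = 0.000979). Without naive replicate 2 the probe set used was called lower (adjusted p = 0.0169, range 0.0169 to 0.657 over 14 alternatives). Among 30 tested genes of nucleotide and one-carbon synthesis 23 rose, among them Rrm1 (3.70 ± 0.35) and Dck, the salvage kinase of deoxycytidine (3.02 ± 0.27), and none fell.

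The promoters of these 2 lists were searched for short elements known from cell cycle genes, because the members moved together. The windows run from 250 bases before to 50 bases after the start site in RefSeq on GRCm38.p6, and both strands were read. The CHR element, searched as TTTGAA, is bound by MuvB complexes that contain B-MYB or FOXM1 in dividing cells, and it was present in 28 of the 42 mitotic genes with a window (66.7%). In comparison, 14.1% of 9623 tested genes and 20.2% of all 27025 genes with a window held these letters. An E2F-type element, searched as TTTCCCGC, TTTGGCGC or TTTCGCGC, was present in 15 of 34 replication genes (44.1%), 11.9% of the mitotic genes, 4.1% of the tested genes and 2.1% of all genes. The short CCAAT motif was found in 69.0% of the mitotic genes, 64.7% of the replication genes and 41.9% of the tested genes. CHR letters were found in 17.6% of the replication genes. Shown first are the 30 bases around the CHR letters nearest to the start site in the 4 mitotic genes with the largest rise among those that held them, read along the gene's strand, with the element in capitals.
Knl1 (chr2:119047138-119047167, plus strand): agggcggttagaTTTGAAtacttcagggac
Kif11 (chr19:37376351-37376380, plus strand): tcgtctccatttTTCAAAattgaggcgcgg
Bub1b (chr2:118598231-118598260, plus strand): ctgcgtcaagagacgttaaaTTTGAAactt
Ncapg (chr5:45669883-45669912, plus strand): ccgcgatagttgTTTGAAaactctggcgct
The E2F-type letters are shown in the same way, in capitals, for the 4 replication genes with the largest rise among those that held them.
Mcm6 (chr1:128359734-128359763, minus strand): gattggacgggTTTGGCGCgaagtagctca
Mcm3 (chr1:20820275-20820304, minus strand): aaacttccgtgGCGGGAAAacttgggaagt
Pola1 (chrX:93632275-93632304, minus strand): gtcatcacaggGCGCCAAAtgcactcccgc
Pole2 (chr12:69228162-69228191, minus strand): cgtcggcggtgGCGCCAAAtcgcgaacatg
In Kif11, Mcm3, Pola1 and Pole2 the element lies on the opposite strand, so its letters appear in reverse complement. Bub1b, the checkpoint kinase BUBR1, rose by 4.78 ± 0.27 and Ncapg, a condensin subunit, by 4.75 ± 0.26. Pola1, the catalytic subunit of the primase-associated polymerase, rose by 3.58 ± 0.25 and Pole2, a subunit of the leading-strand polymerase, by 3.09 ± 0.35. These matches describe letters in the windows and were not tested for binding.

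Regulators of the cell cycle moved in both directions, and more of them rose than fell. E2f8, an atypical E2F repressor made in S phase, measured 8.84, 9.01 and 8.87 on the IgE GC arrays and 4.51, 4.49 and 4.16 on the naive arrays, without overlap (4.52 ± 0.18, adjusted p = 2.94e-11). Foxm1, the activator of mitotic genes, rose by 3.22 ± 0.35, and Rb1, the retinoblastoma protein that holds E2F in check, fell by 1.78 on the log2 scale. In the list of E2F, MYB and FOXM1 factors 15 of 22 genes rose and only Rb1 fell. Among 26 tested cyclins, CDKs and CDK inhibitors 17 rose and 2 fell. Ccna2 and Ccnb2, the S phase and mitotic cyclins, rose by 4.97 ± 0.33 and 4.91 ± 0.28, and Cks1b, a CDK-binding subunit, by 4.25 ± 0.33.

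The D-type cyclins moved apart. Ccnd3, the D cyclin that GC cells depend on, rose by 1.38 ± 0.25 (adjusted p = 0.000564). Ccnd2 measured 7.06, 6.19 and 7.13 on the IgE GC arrays and 7.07, 8.59 and 8.25 on the naive arrays, a difference of -1.18 ± 0.32 (adjusted p = 0.013). The first naive array lay within the IgE GC range for Ccnd2, and its call was lost in 4 of 14 alternatives, namely with only the 6 arrays and without IgE GC replicate 2, naive replicate 2 or naive replicate 3 (adjusted p 0.00037 to 0.0943 over all 14). CDK inhibitors were also split. Cdkn1b, which encodes p27, measured 5.93, 6.30 and 6.31 against 8.07, 8.52 and 8.52 and fell by 2.19 on the log2 scale (adjusted p = 1.58e-06), whereas Cdkn2c, which encodes p18, rose by 3.19 ± 0.34.

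Quiescence factors were lower or not called. Of 21 tested genes in that list 10 fell and none rose, with a median of -0.40. Pdcd4, an inhibitor of translation, measured 6.62, 6.84 and 7.26 in IgE GC cells and 9.13, 10.38 and 9.88 in naive cells, and the groups were well separated (-2.89 ± 0.39, adjusted p = 3.1e-05). The Kruppel-like factors Klf3 and Klf2, which keep lymphocytes resting and recirculating, differed by -2.46 ± 0.47 and -1.66 ± 0.24. Btg1, an antiproliferative factor, stayed high in both groups, at 10.75, 10.82 and 10.48 against 11.89, 11.91 and 11.80, and still fell (-1.18 ± 0.19, adjusted p = 0.000204).

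Many genes that repair or copy past damaged DNA rose. Hmces, which shields abasic sites in single-stranded DNA, measured 10.42, 10.53 and 10.63 on the IgE GC arrays and 6.0, 7.19 and 6.18 on the naive arrays. The difference was 4.07 ± 0.30 (adjusted p = 4.14e-08), the largest in its list and without overlap. Polh, the polymerase that writes the A:T mutations of antibody genes, measured 9.58, 9.59 and 9.94 against 6.25, 6.78 and 5.36 and rose by 3.58 ± 0.31 (adjusted p = 2.02e-07). Exo1, the mismatch repair exonuclease, rose by 2.77 ± 0.30 and Ung, which removes the uracil that AID makes, by 1.39 ± 0.25. In the list of AID and hypermutation repair 13 of 20 tested genes rose and none fell.

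End joining and recombination genes behaved alike in direction. H2ax, the histone that marks DNA breaks, rose by 3.61 ± 0.36, and Lig4, the ligase of classical end joining, by 1.88 ± 0.30. End joining and class switch genes rose in 10 of 20 cases with none lower. Gen1, a nuclease of recombination intermediates, rose by 3.72 ± 0.24 and Brip1, the BRCA1-associated helicase, by 3.49 ± 0.20, among 25 of 37 homologous recombination and Fanconi genes that rose and 1 that fell.

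Chromatin regulators changed in number, including enzymes that copy DNA methylation. Hells, a remodeller needed for DNA methylation, rose by 4.10 ± 0.38, Uhrf1, which recruits the maintenance methyltransferase, by 3.68 ± 0.25, and Dnmt1, that enzyme itself, by 2.02 ± 0.14. Ezh2, the histone H3 lysine methyltransferase that GC formation requires, measured 9.64, 9.76 and 9.71 in IgE GC cells and 6.06, 6.50 and 6.39 in naive cells. Its paralog Ezh1 went the other way, at 6.96, 6.63 and 6.74 against 8.76, 8.19 and 7.39. Neither gene's groups overlapped, and the differences were 3.39 ± 0.21 (adjusted p = 5.18e-09) and -1.34 ± 0.30 (adjusted p = 0.00321). Of 45 tested chromatin regulators 30 rose and 4 fell.

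Metabolic lists moved upward with smaller steps. Glycolysis genes rose in 10 of 16 cases, led by Tpi1, triosephosphate isomerase (2.51 ± 0.30), with Ldha, lactate dehydrogenase, at 1.71 ± 0.20. Slc2a1, the glucose transporter GLUT1, was not called, at -0.23 ± 0.31 (adjusted p = 0.61). Respiratory chain genes rose in 28 of 36 cases with a median of 0.96, and cholesterol genes in 16 of 29. Msmo1 and Sqle, enzymes of sterol synthesis, rose by 2.46 ± 0.45 and 1.77 ± 0.36, and Abca1, a cholesterol exporter, was among the 2 that fell (-1.70 ± 0.44). Ribosome biogenesis and MYC target genes rose in 17 of 43 cases, a count that dropped to 8 with only the 6 arrays, to 8 after quantile normalization and to 9 without naive replicate 1.

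Purine handling combined large rises and falls. Ada, which deaminates adenosine, measured 9.77, 9.83 and 9.34 on the IgE GC arrays and 4.99, 6.11 and 5.28 on the naive arrays (4.18 ± 0.32, 18.2-fold, adjusted p = 4.56e-08). Dpp4, or CD26, the surface peptidase that binds adenosine deaminase in humans, measured 4.38, 3.69 and 4.60 against 8.05, 8.49 and 7.66. Both genes moved in opposite directions, and Dpp4 differed by -3.84 ± 0.30 (adjusted p = 6.57e-08). Adk, adenosine kinase, rose by 2.26 ± 0.21, and P2rx4, an ATP-gated channel, fell by 1.78 on the log2 scale.

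**Figure D4:**
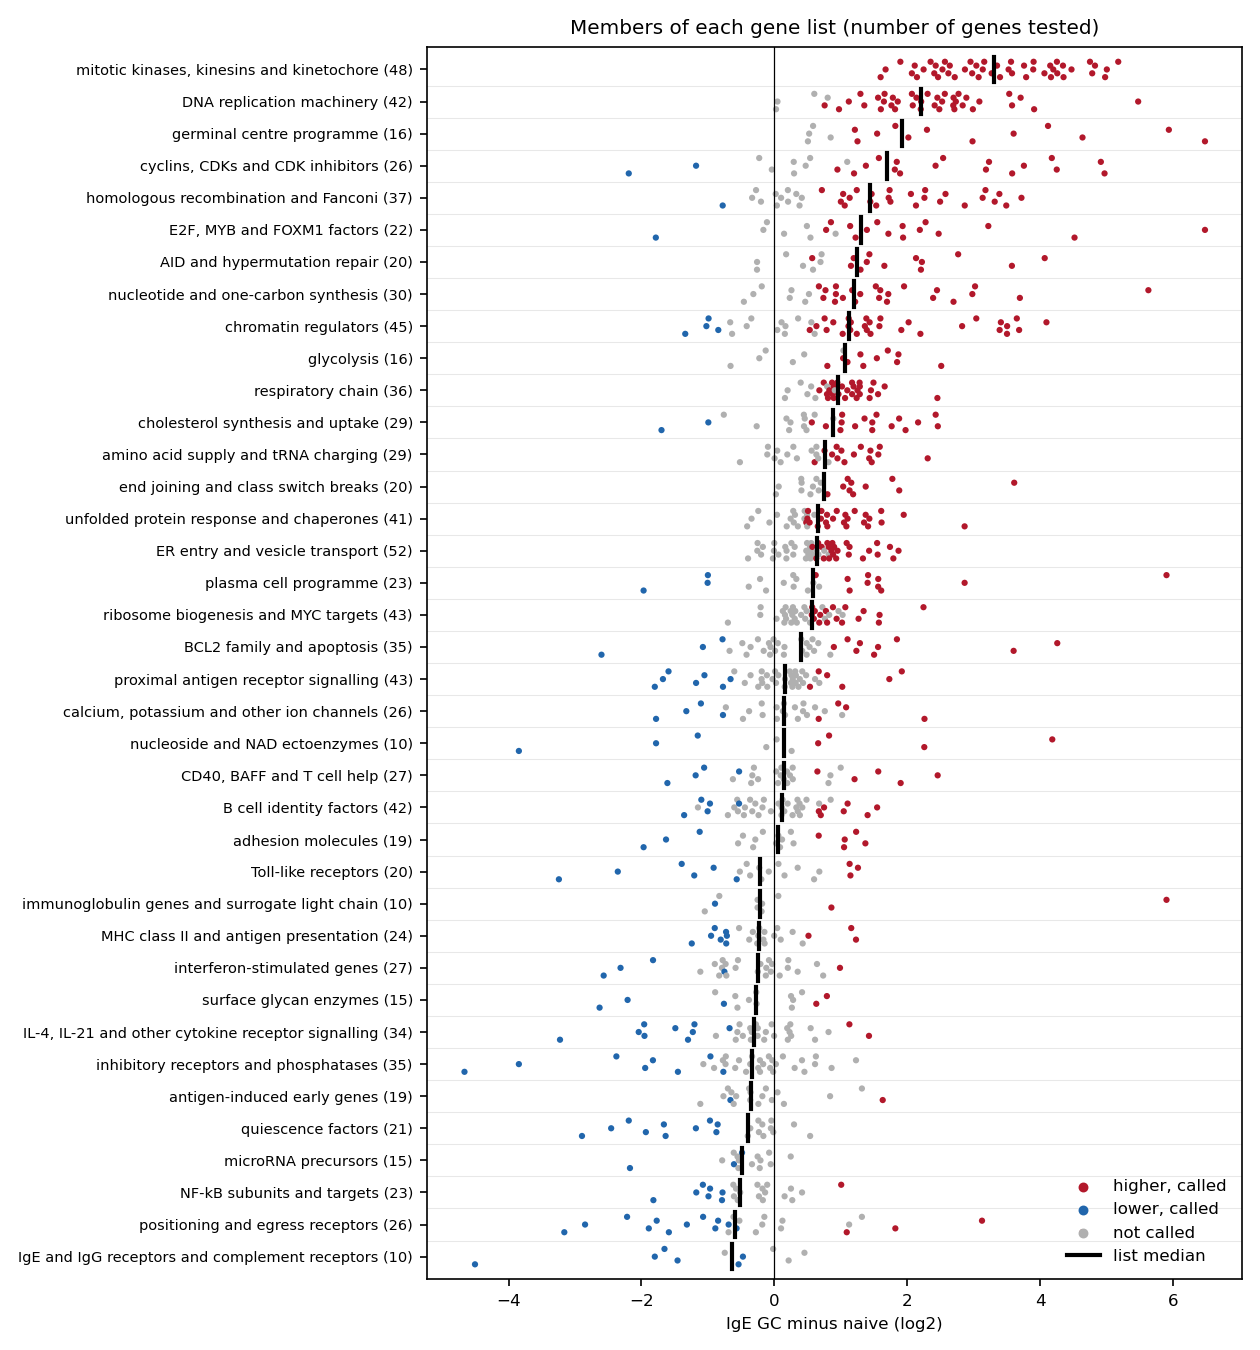
Difference between IgE GC and naive cells (log2) for each tested member of 38 gene lists, coloured by call, with the list median as a black bar and lists in order of their median. The mitotic list lies wholly to the right of 0, while the lists of Fc and complement receptors, positioning receptors and NF-kB genes have medians of -0.64, -0.59 and -0.51.

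The 15 largest decreases included phosphatases, a complement regulator and cytokine receptor and innate signalling genes. Ptpn22, which encodes a phosphatase acting as a brake on antigen receptors, measured 4.36, 3.75 and 4.65 on the IgE GC arrays and 9.21, 9.22 and 8.31 on the naive arrays. All IgE GC arrays were under their median, and the difference was -4.66 ± 0.31, 25.3-fold (adjusted p = 9.57e-09). Zfp318, which is needed for IgD production from the long heavy chain transcript, measured 6.40, 6.32 and 6.72 against 10.27, 10.80 and 10.84 (-4.16 ± 0.23, adjusted p = 1.58e-09). Ptprj, the receptor phosphatase CD148, which sets the activity of SRC-family kinases, measured 4.56, 4.52 and 4.33 against 9.05, 7.96 and 7.94, and both of its probe sets fell (-3.84 and -4.15).

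Other genes among the 15 largest decreases had varied roles. Plac8 differed by -4.33 ± 0.34, Arap2, which acts on ARF GTPases, by -3.89 ± 0.25, and Ifi203, an interferon-inducible gene, by -3.66 ± 0.37. Ms4a4c, of the CD20-like family, differed by -3.54 ± 0.29, and Ly6d, a surface protein of B-lineage cells, by -3.46 ± 0.59. Hhex, a homeobox factor, measured 5.28, 4.61 and 5.45 against 7.45, 9.21 and 8.66, and Sla, an adaptor that lowers antigen receptor levels, differed by -3.31 ± 0.36. The predicted gene Gm9861 differed by -3.49 ± 0.26. Among the 15 largest increases, those not described elsewhere were H2ac4, a replication-dependent histone gene (5.61 ± 0.42), Prr11 (4.94 ± 0.30), Hmmr, a spindle protein that also binds hyaluronan (4.93 ± 0.20), and AI506816 (64.2-fold), which varied most among its IgE GC arrays, at 9.22, 10.04 and 8.42.

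Many receptors that steer B cells through follicles and out of lymph nodes were lower in IgE GC cells. S1pr1, the receptor for egress into lymph, measured 7.39, 7.27 and 7.86 on the IgE GC arrays and 10.24, 10.78 and 10.04 on the naive arrays, with no overlap (-2.85 ± 0.30, 7.2-fold, adjusted p = 2.77e-06). Ccr6, a chemokine receptor of naive and memory B cells, measured 5.45, 5.41 and 4.86 against 8.14, 9.36 and 7.71, and fell by 3.16 on the log2 scale (adjusted p = 2.8e-06). Gpr183, or EBI2, which draws cells to the outer follicle, differed by -1.77 ± 0.28 and Ccr7, which draws them to the T cell zone, by -1.89 ± 0.39. In the positioning list 12 of 26 tested genes fell and 4 rose, the latter being Rgs13, Rgs2 (3.13 ± 0.46), S1pr2 and Gna13.

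The chemokine receptors Cxcr4 and Cxcr5 differed by less than the positioning genes above. Cxcr4, which holds cells in the dark zone, measured 10.80, 10.98 and 10.86 on the IgE GC arrays and 11.43, 11.43 and 11.49 on the naive arrays. It fell by 0.57 on the log2 scale (adjusted p = 0.0441), and the call was lost with only the 6 arrays and without any single IgE GC or naive array (adjusted p 0.011 to 0.111 over 14 alternatives). Cxcr5, the follicle homing receptor, measured 8.87, 8.90 and 8.70 against 9.14, 9.57 and 9.32 and was not called (-0.53 ± 0.29, adjusted p = 0.197), although it was after quantile normalization (adjusted p = 0.046, range 0.046 to 0.357 over 14 alternatives).

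Adhesion molecules split by integrin chain. Itgb7 and Itga4, the chains of the gut-homing integrin, differed by -1.97 ± 0.16 and -1.63 ± 0.25. Itgb1, their alternative beta chain, rose by 1.23 ± 0.25, as did Cd44, the hyaluronan receptor (1.05 ± 0.17), and Cd24a, the heat-stable antigen (1.37 ± 0.18). Of 19 tested adhesion genes 5 rose (26.3%, against 19.3% of all genes) and 3 fell (15.8%, against 7.4%). Among 15 tested glycan enzymes 2 rose and 3 fell, or 33.3% called against 26.7% of all genes, and these counts were 1 and 6 after quantile normalization and 0 and 2 with only the 6 arrays. B3gnt5, which starts lacto-series glycolipids, measured 7.33, 7.57 and 7.02 against 9.43, 9.68 and 9.43 and differed by -2.21 ± 0.29. St3gal1, which caps O-glycans with sialic acid, differed by -2.63 ± 0.32 on the probe set used and by -0.24 (adjusted p = 0.511) on its other. Cmah, the hydroxylase whose loss in GC B cells changes their sialic acid in mice, was not called (-0.59 ± 0.34, adjusted p = 0.211), but was called without naive replicate 1 (adjusted p 0.0217 to 0.654 over 14 alternatives).

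Receptors for IgE, IgG and complement were lower or not called. Cd55, the complement regulator decay-accelerating factor, measured 6.48, 6.49 and 5.18 on the IgE GC arrays and 10.60, 10.69 and 10.36 on the naive arrays. The difference was -4.51 ± 0.33, or 22.7-fold (adjusted p = 2.92e-08). Cr2, complement receptor CD21, measured 9.15, 8.85 and 9.28 against 10.58, 11.13 and 10.98 (-1.80 ± 0.23, adjusted p = 1.74e-05). Fcmr, the IgM Fc receptor, differed by -1.46 ± 0.25. In all, 6 of 10 tested genes fell and none rose.

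The low-affinity IgE receptor CD23, encoded by Fcer2a, stayed highly expressed. It measured 11.31, 11.24 and 10.94 on the IgE GC arrays and 11.96, 12.02 and 11.75 on the naive arrays. The groups did not overlap, yet the difference of -0.75 ± 0.34 was not called (adjusted p = 0.112), and it was called only with the 6 arrays alone (adjusted p = 0.0369, range 0.0369 to 0.264 over 14 alternatives). Fcgr2b, the inhibitory IgG receptor, overlapped between groups, at 7.16, 7.81 and 7.06 against 7.15, 7.77 and 7.16. Fcer1g, the signalling chain of the high-affinity IgE receptor in mast cells and basophils, measured 4.32, 4.37 and 4.36 against 6.76, 6.63 and 4.62. Its naive arrays spread widely, and the call (adjusted p = 0.00557) was lost with only the 6 arrays (adjusted p = 0.0624, range 3.03e-06 to 0.0624 over 13 alternatives). The 11 markers of basophils and mast cells summed to 197 to 205 in IgE GC cells and 205 to 302 in naive cells.

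Proximal antigen receptor genes changed in both directions. Of 43 tested 6 rose and 7 fell, 30.2% called against 26.7% of all genes, and the median was 0.16. With only the 6 arrays 3 rose and 6 fell. Akt1 and Akt2, kinases downstream of PI3K, rose by 1.73 ± 0.31 and 1.92 ± 0.31. Vav3, a guanine exchange factor, fell by 1.59 on the log2 scale. Inhibitory receptors and phosphatases had none of 35 tested members higher, against 19.3% of all genes, and 8 lower (22.9%, against 7.4%). Apart from Ptpn22 and Ptprj these included Pecam1 (-2.38 ± 0.37), Ceacam1 (-1.94 ± 0.36) and Pirb (-1.45 ± 0.19), all receptors with inhibitory motifs in their tails.

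Cytokine receptor genes fell more often than they rose, 9 (26.5%, against 7.4% of all genes) against 2 (5.9%, against 19.3%) of 34 tested. Il10rb, the shared chain of the IL-10 and IL-22 receptors, measured 5.51, 6.36 and 5.93 on the IgE GC arrays and 9.11, 9.27 and 9.09 on the naive arrays (-3.23 ± 0.21, adjusted p = 9.57e-09). Il10ra, the other IL-10 receptor chain, was also lower (-1.95 ± 0.30), as was Ifnar2, a chain of the type I interferon receptor (-1.96 ± 0.45). Tgfbr1, the signalling TGF-beta receptor, rose by 1.42 ± 0.25.

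The receptor genes of the T cell cytokines IL-4 and IL-21, Il4ra and Il21r, were not called. Il4ra measured 9.70, 9.56 and 9.85 against 9.37, 10.59 and 10.24, and Il21r measured 10.15, 9.89 and 10.22 against 8.85, 10.45 and 10.25. In both genes naive replicate 1 was the lowest array, and without it Il4ra was called lower (adjusted p = 0.0489, range 0.0489 to 0.797 over 14 alternatives). Stat6, which carries the IL-4 signal, fell by 0.67 on the log2 scale (adjusted p = 0.00784), a call lost with only the 6 arrays (adjusted p = 0.0915, range 0.000485 to 0.0915 over 14 alternatives).

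Molecules of T cell help changed in both directions. Cd86, the light zone costimulatory ligand, measured 9.62, 9.06 and 9.15 on the IgE GC arrays and 6.22, 7.74 and 6.50 on the naive arrays. All IgE GC values lay above the naive ones, and the difference was 2.46 ± 0.41 (adjusted p = 0.000297). Icosl, the ligand of ICOS on T follicular helper cells, fell by 1.61 on the log2 scale, with Cd84 (-1.18 ± 0.31) and Slamf6 (-1.06 ± 0.23), receptors of the SLAM family that hold T and B cells together. Slamf7, of the same family, rose by 1.56 ± 0.18. Cd40 measured 9.01 to 9.03 against 9.47 to 9.86 and was not called (adjusted p = 0.0574), but was after quantile normalization (adjusted p = 0.00975, range 0.00975 to 0.133 over 14 alternatives). In that list of 27 tested genes 5 rose (18.5%, against 19.3% of all genes) and 4 fell (14.8%, against 7.4%), and with only the 6 arrays 2 rose and 3 fell.

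In the lists of NF-kB genes and of Toll-like receptors more genes fell than rose. Of 23 NF-kB genes 7 fell (30.4%, against 7.4% of all genes) and 1 rose (4.3%, against 19.3%). Without naive replicate 2, 3 fell. Nfkbid, a nuclear inhibitor protein of the family, measured 6.35, 6.25 and 6.22 against 8.22, 8.08 and 7.99 (-1.82 ± 0.20, adjusted p = 2.94e-06), and Nfkbiz, a related protein, differed by -1.17 ± 0.25. Irak3, which dampens Toll-like receptor signals, measured 5.56, 5.76 and 5.54 against 9.48, 8.49 and 8.62 (-3.24 ± 0.26, adjusted p = 8.65e-08), and Tlr7, the sensor of single-stranded RNA, differed by -2.36 ± 0.43. These were among 6 of 20 Toll-like receptor genes that fell, beside 3 that rose. MHC class II and presentation genes gave 3 higher and 7 lower of 24, with 2 lower without IgE GC replicate 3. H2-Ab1, a class II chain, overlapped between groups, at 9.77 to 10.80 and 9.77 to 10.21, while B2m, the light chain of class I, differed by -0.73 ± 0.18 and Psmb8, an immunoproteasome subunit, rose by 1.23 ± 0.15.

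In the BCL2 family the survival gene Bcl2 fell and several death-promoting members rose. Bcl2, which protects resting B cells, measured 6.57, 6.14 and 6.54 on the IgE GC arrays and 8.76, 9.54 and 8.74 on the naive arrays, without overlap (-2.60 ± 0.45, adjusted p = 0.000381). Bid and Bak1, which promote opening of the mitochondrial membrane, rose by 1.85 ± 0.25 and 1.50 ± 0.19, and Bcl2l11, which encodes BIM, by 1.24 ± 0.30. Mcl1, the survival factor GC cells rely on, measured 10.21 to 10.44 and 10.22 to 10.56 and was not called (-0.06 ± 0.16, adjusted p = 0.812). Of 35 tested genes of the family and of apoptosis 9 rose (25.7%, against 19.3% of all genes) and 3 fell (8.6%, against 7.4%), and the rises included Birc5, or survivin (4.26 ± 0.18), which also works in mitosis.

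Identity factors of the B lineage were called about as often as all genes. Of 42 tested 7 rose and 5 fell, 28.6% called against 26.7%, with a median of 0.11. After quantile normalization 6 rose and 11 fell, so the balance of this list turned with the scaling, and 3 fell without IgE GC replicate 1. Pax5, the factor that maintains B cell identity, overlapped between groups, at 11.22, 11.08 and 11.04 against 10.91, 11.65 and 11.48. Spi1, which encodes PU.1, rose by 1.04 ± 0.21, and Foxp1, a forkhead factor of resting B cells, differed by -0.97 ± 0.22. Bhlhe40, a repressor that restrains GC entry in mice, differed by -1.36 ± 0.30. Myc measured 9.23, 9.03 and 9.03 against 9.26, 9.95 and 10.18 and was not called (-0.70 ± 0.32, adjusted p = 0.118), but was called lower after quantile normalization and without naive replicate 1 (adjusted p 0.0291 to 0.324 over 14 alternatives).

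Genes of the plasma cell programme rose in part. Jchain, the chain that joins secreted IgM and IgA, measured 11.01, 11.22 and 11.56 on the IgE GC arrays and 7.13, 4.77 and 4.18 on the naive arrays, with naive replicate 1 well above the other naive arrays. The difference was 5.90 ± 0.47 (59.8-fold, adjusted p = 8.11e-08), and the 4 IgE plasma cell arrays measured 12.64 to 12.72. Xbp1, the factor of the secretory expansion, measured 8.95, 9.65 and 9.39 against 8.37, 7.65 and 8.65 (1.10 ± 0.26, adjusted p = 0.00458) and 11.00 to 11.55 on the IgE plasma cell arrays. Mzb1, a chaperone of antibody assembly, rose by 1.13 ± 0.20 and Ell2, which favours the secreted heavy chain form, by 1.56 ± 0.20.

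The regulators at the centre of plasma cell differentiation did not follow. Prdm1, which encodes BLIMP-1, measured 5.35, 4.74 and 6.49 on the IgE GC arrays and 4.88, 4.72 and 4.97 on the naive arrays, with only replicates 1 and 3 above the naive range. It was not called (0.67 ± 0.31, adjusted p = 0.117) but was without IgE GC replicate 2 (adjusted p = 0.0132, range 0.0132 to 0.583 over 13 alternatives), and the IgE plasma cell arrays measured 9.78 to 10.01. Irf4 measured 6.98, 6.98 and 7.80 against 7.72, 8.59 and 8.46, overlapping between groups, and fell by 1.00 on the log2 scale (adjusted p = 0.0176). That call was lost in 5 of 14 alternatives, which were the 6 arrays alone and the fits that left out replicate 1 or 2 of the IgE GC cells or replicate 2 or 3 of the naive cells (adjusted p 0.00239 to 0.0799 over all 14). In this list 10 of 23 tested genes rose and 3 fell.

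Many secretory pathway genes rose, and none fell except 1 in each list after quantile normalization. In the list of unfolded protein response and chaperones 25 of 41 rose, with a median of 0.65, and this count was 14 with only the 6 arrays. Txndc5, an oxidoreductase of the endoplasmic reticulum, measured 9.74, 9.68 and 10.29 against 7.07, 7.71 and 6.33, without overlap (2.86 ± 0.29, adjusted p = 1.7e-06). Eif2ak3, the stress sensor PERK, rose by 1.95 ± 0.28 and Edem1, which directs misfolded proteins to disposal, by 1.61 ± 0.23, whereas Ddit3, the stress factor CHOP, was called only after quantile normalization, as lower (-0.41 ± 0.18, adjusted p = 0.103, range 0.02 to 0.259 over 14 alternatives). ER entry and vesicle transport genes rose in 24 of 52 cases, or 14 with only the 6 arrays. Sar1b, a GTPase of the transport vesicle coat, and Stt3b, a glycosylation enzyme, rose by 1.87 ± 0.26 and 1.79 ± 0.19.

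Among immunoglobulin genes with a usable probe set, values moved little apart from Jchain. Vpreb3, a chain that associates with immature heavy chains, rose by 0.86 ± 0.17. Ighm, the IgM heavy chain, measured 10.26, 9.94 and 10.43 on the IgE GC arrays and 11.18, 11.03 and 11.11 on the naive arrays, a difference of -0.89 ± 0.25 (adjusted p = 0.0146). Its other probe sets gave -0.28 and 0.14 (adjusted p = 0.377 and 0.9), and the call was lost with the mean of the probe sets and without IgE GC replicate 2 (adjusted p 0.00584 to 0.429 over 14 alternatives). Probe sets of immunoglobulin genes share sequence between family members, and such values are uncertain.

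MicroRNA genes were measured by probes to the precursor or its surrounding transcript, which do not read the mature form. Of 59 listed, 48 had a probe set and 15 passed the filter on low values, of which 3 fell and none rose. Mir142, abundant in blood cells, measured 4.98, 4.83 and 5.13 on the IgE GC arrays and 8.45, 7.59 and 5.42 on the naive arrays (-2.17 ± 0.62, adjusted p = 0.0164). Its naive arrays spread over a range wider than that difference. Mir185 and Mir24-2 differed by -0.61 ± 0.18 (adjusted p = 0.0184) and -0.49 ± 0.16 (adjusted p = 0.0345). Mir142 and Mir24-2 (4.86 to 5.16) were under the array medians of 5.29 to 5.34 on all IgE GC arrays, so these values may be background. All 3 calls were lost with only the 6 arrays, without naive replicate 1 and without IgE GC replicate 2, with adjusted p up to 0.091, 0.0827 and 0.16 in turn. Those of Mir185 and Mir24-2 were also lost without IgE GC replicate 3, and that of Mir24-2 without naive replicate 2 and after quantile normalization. The mature forms that RefSeq (GRCm38.p6) gives for these genes are shown because they are what the precursors would yield, with the seed, bases 2 to 8, in capitals.
miR-142a-5p (chr11:87756867-87756887, plus strand): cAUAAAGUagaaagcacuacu
miR-142a-3p (chr11:87756903-87756925, plus strand): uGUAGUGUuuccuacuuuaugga
miR-185-3p (chr16:18327405-18327425, minus strand): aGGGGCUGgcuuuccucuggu
miR-24-2-5p (chr8:84208839-84208860, plus strand): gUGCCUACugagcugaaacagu
miR-24-3p (chr8:84208875-84208896, plus strand): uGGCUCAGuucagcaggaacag
No pair of these 5 mature forms shares a seed.

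Set against IgG1 GC cells, the IgE GC arrays showed no called difference. Against GFP+ IgG1 GC cells 0 of 12098 genes (0%) passed limma's adjusted p of 0.05, with 264 genes at an unadjusted p under 0.05. Against GFP- IgG1 GC cells 0 genes (0%) passed, with 205 at an unadjusted p under 0.05 and a smallest adjusted p of 0.582. Both counts are under the 0.05 share of genes that would pass if nothing differed. The fit pooled the spread of all 18 arrays, naive ones included. The median SD per gene was 0.342 among naive arrays, 0.223 among GFP+ and 0.161 among GFP- IgG1 GC arrays. Whether this pooling lowered the counts was not tested. A fit restricted to the arrays of each comparison also called 0 genes, which does not show that the groups are alike. These 2 comparisons share the IgE GC arrays with the comparison against naive cells, so their values are set side by side only. For Mybl1, Gcsam and Ptpn22 the means of the IgE GC arrays were 11.06, 10.41 and 4.25, those of the GFP+ IgG1 GC arrays 10.96, 9.83 and 4.08, and those of the GFP- IgG1 GC arrays 11.14, 10.14 and 4.77.

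**Figure D5:**
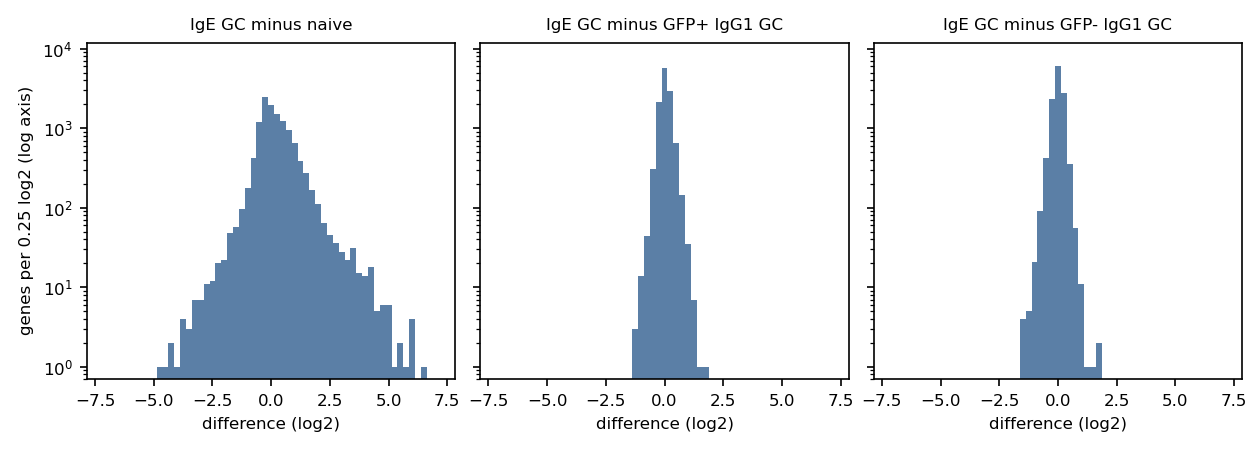
Number of genes (log axis) by difference in bins of 0.25 log2, for IgE GC cells against naive cells, GFP+ IgG1 GC cells and GFP- IgG1 GC cells. Differences from naive cells reach beyond 6 upward and 4 downward, whereas those from the IgG1 GC groups stay within 2.

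The genes with the smallest p in these IgG1 comparisons were Lgr5 and Lrrk2. Lgr5, a receptor for R-spondins, measured 6.47, 7.07 and 6.55 in IgE GC cells, 5.03, 4.76 and 4.75 in naive cells, 5.70, 5.98 and 5.78 in GFP+ IgG1 GC cells and 5.70, 6.25 and 5.49 in GFP- IgG1 GC cells. The IgE GC arrays were the highest in each case, but the differences of 0.87 ± 0.20 and 0.89 ± 0.20 from the IgG1 groups had an adjusted p of 1. Lrrk2, a kinase, measured 7.31, 7.40 and 6.80 in IgE GC cells, 9.85, 9.93 and 9.98 in naive cells, 7.88, 7.71 and 7.60 in GFP+ IgG1 GC cells and 8.55, 8.32 and 7.97 in GFP- IgG1 GC cells. Its difference from the GFP- group was -1.11 ± 0.20 (unadjusted p = 4.81e-05, adjusted p = 0.582). Cr2 was next against the GFP- group, at -1.04 ± 0.23 with an adjusted p of 1, and its IgE GC values of 8.85 to 9.28 were the lowest of these 4 groups. Nfkbid followed in the same direction (-0.81 ± 0.20, adjusted p of 1). The remaining genes of the 5 with the smallest p were Cyp2r1, Slc36a4, Adhfe1 and Plpp1 against the GFP+ group, with differences of -0.79 to 1.21, and Zfp788 against the GFP- group, with -1.52, all at an adjusted p of 1.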

How the data were processed

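Microarrays were hybridised with biotin-labelled cDNA amplified from 2 ng of total RNA, per the labels' protocols. The deposited values are log2 signals per probe set for 30 arrays, and the submitters' processing notes name RMA and R 2.15.2 as what the authors used. The scale and any array-wide change in RNA content per cell are therefore lost, and the sources do not say if both experiments were normalized together. Depth does not apply to arrays, and the number of arrays limits the precision.

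From these values, genes were represented by the probe set with the highest mean (19937 genes, 799 of the tested ones with several probe sets). Genes above the array median on at least 2 of the 18 arrays of the first experiment were tested (12098), which keeps genes that are high in 1 group only. limma 3.58.1 in R 4.3.3 fitted the 6 groups of that experiment with lmFit and eBayes and Benjamini-Hochberg adjustment, after it was tested on simulated data. Errors are SE of the fit. The design text states separate sorts, so the arrays of a group are separate sorts of pooled mice. The p-values rest on a spread between sorts that was pooled over the 6 groups, not on that of the compared groups alone. Dates and batches are not given in the sources used here. Gene names come from the platform annotation, with 21553 single-symbol probe sets matched to RefSeq (GRCm38.p6). Named genes were the 15 largest changes in each direction without overlap, the largest called members of each list with members central to a list's role, the genes of the sort gates, and the 5 smallest p-values of each IgG1 comparison. The comparison, the gene lists and the named members were chosen with earlier results of these data known. Alternatives varied the arrays in the fit, normalization, filter, probe set rule, moderation and replicate block, and left out single arrays.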

Additional observations from a re-analysis of the deposited data

How the results depend on the processing

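Over 14 alternatives, no named comparison of IgE GC with naive cells changed sign where it was called. In the alternative with every probe set, each gene was read at the probe set nearest its main difference. Another probe set of Ighm, which was called lower, gave 0.14 (limma adjusted p = 0.9). Of 147 named genes that were called, 135 kept the call throughout on this reading. They include Top2a and St3gal1, whose other probe sets were not called (limma adjusted p = 0.34 and 0.511). The count of called genes was 2037 with only the 6 arrays, with 418 lower in IgE GC cells, and 1466 were lower with no filter on low values, when 19937 genes were tested, 2274 were higher and the increases were 60.8% of calls. Leaving out 1 array gave 2293 to 4024 called genes, 1778 to 2705 higher, 515 to 1319 lower and 1591 to 2132 at least 2-fold; the lower count was 515 without IgE GC replicate 2 and 561 without IgE GC replicate 3. The cause was not tested. A replicate block gave 3268 called genes. Deviations of equally numbered arrays from their group means correlated at 0.069, 0.159 and 0.023, and those of differently numbered arrays at -0.113 to 0.032. The main fit did not take the numbers as pairs. Both IgG1 comparisons gave 0 calls under every alternative, leaving out each array included. The larger spread of the naive arrays and the absence of detection calls limit the values of genes near the array median.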

Other observations

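Of 29 tested genes of amino acid supply and tRNA charging 15 rose and none fell, against 19.3% and 7.4% of all genes. Asns, asparagine synthetase, measured 6.94, 7.17 and 6.93 on the IgE GC arrays and 4.95, 4.43 and 4.74 on the naive arrays, without overlap (2.31 ± 0.36, limma adjusted p = 0.000138), and Slc7a5, a large amino acid transporter, rose by 1.59 ± 0.25. Among 26 tested ion channel genes 4 rose and 4 fell, 30.8% called against 26.7% of all genes. Without naive replicate 3, 7 rose. Kcnn4, the calcium-activated potassium channel of activated lymphocytes, measured 7.51, 8.89 and 8.18 against 6.32, 5.57 and 5.91 (2.26 ± 0.36, adjusted p = 0.000194).

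Interferon-stimulated genes gave 1 higher and 4 lower of 27 tested, 18.5% called against 26.7% of all genes. In this list 8 were lower both after quantile normalization and without naive replicate 1. Irgm1, an immunity-related GTPase, measured 4.88, 5.12 and 4.97 on the IgE GC arrays and 7.10, 7.31 and 7.50 on the naive arrays (-2.31 ± 0.48, adjusted p = 0.00164), and the groups were apart. Antigen-induced early genes gave 1 higher and 1 lower of 19, 10.5% called against 26.7% of all genes. The called genes were Pim1, a survival kinase (1.63 ± 0.43), and Zfp36, which destabilises messenger RNA (-0.66 ± 0.16). The limma call for Pim1 was lost without IgE GC replicate 2 (adjusted p 0.00794 to 0.0564 over 14 alternatives), and that for Zfp36 with only the 6 arrays in the fit (0.000381 to 0.0563). Of these 19 genes 5 were lower after quantile normalization and 3 without naive replicate 1, each time with 1 higher. Markers of marginal zone and B1 cells gave 2 lower of 9 tested, neutrophil and eosinophil markers 1 lower of 6, and natural killer and erythroid markers none called of 2 each.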
